A study of Mus musculus with 6 samples.

Results

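The genes described here encode the proteins of the mitochondrial ribosome, and they were chosen by name: every probe on the array whose single annotated gene symbol starts with Mrpl or Mrps followed by a digit. The array held 132 such probes for 76 genes, of 19044 genes with a probe of 1 symbol, 48 named Mrpl for the large subunit and 28 named Mrps for the small subunit. The RNA came from tumours of 4T1 cells, a mouse mammary carcinoma line of BALB/c origin, grown in the mammary fat pad of female BALB/c mice aged 8 to 10 weeks and taken on day 7. The 3 empty vector tumours came from cells with an empty lentivirus, and the 3 uPA overexpression tumours from cells labelled as transduced with a virus for mouse uPA, the urokinase plasminogen activator, a secreted serine protease. Both groups thus carried a lentiviral vector. The labels name neither the promoter that drives uPA nor whether the lines were clones.

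The mitochondrial ribosome translates the few messenger RNAs of mitochondrial DNA, all of which encode subunits of the respiratory chain and ATP synthase. Its RNAs are made inside the organelle, while all its proteins are encoded in the nucleus, made on cytosolic ribosomes and imported. Many of these proteins have a counterpart in the bacterial ribosome and others are found only in mitochondria. The small subunit holds the decoding centre, where codons are read, and the large subunit holds the peptidyl transferase centre, where peptide bonds form.

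On each array 43.6% to 46.1% of the 45281 probes were detected above background, with a mean raw intensity between 415.7 and 460.8. Levels below are log2 intensities after background correction and quantile normalisation, and differences are the mean of the uPA overexpression arrays minus that of the empty vector arrays. Plau, the gene for uPA, differed by -0.80 (SE 0.154, adjusted p = 0.0326 by limma), from a mean of 12.94 to one of 12.14, which goes against the label. Leaving out any 1 array ended that call, though the difference stayed between -0.92 and -0.69. Every direction below is thus only that of the labels. The labels do not say that each tumour came from its own mouse, so p-values measure the spread between these tumours, and fewer cells of a type cannot be told apart from less RNA per cell. Of 10 markers of mammary epithelium on the array, 8 were detected on all 6 arrays and Epcam on none.

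No gene of the mitochondrial ribosome passed the test, but most lay slightly higher in the uPA overexpression tumours. Of the 76 genes, 73 had a probe bright enough to test, detected on at least 3 of the 6 arrays, and these 73 probes were in fact detected on all 6. By limma with Benjamini-Hochberg adjustment over 10842 genes, 0 of the 73 were called in either direction at an adjusted p under 0.05, where 5.4% of all tested genes were called, 2.31% higher and 3.1% lower. At an unadjusted p under 0.05, 13 members were higher (17.8%, against 9.95% of all genes) and 1 was lower (11.4% of all genes, and 21.3% in either direction). The smallest adjusted p was 0.0714, for Mrpl3. An ordinary linear model without shared variance called 0 of all tested genes, so its 0 calls among the members tell nothing about them. At an unadjusted p under 0.05 that model had 18 members higher (24.7%, against 9.79% of all genes) and 2 lower (10.8% of all genes). The count of 13 depended on the setting and did not hold under several alternatives. It rose to 15 with offset 50 and 17 without background correction (20.5% and 23.3%, against 10.7% and 10.9% of all genes). It was 19 with a trended and robust prior and 20 without a filter (26% and 26.3%, against 11% and 8.06% of all genes). It was 4 higher and 2 lower with arrays scaled to the 75th percentile (5.48% higher, against 7.67% of all genes). Without empty vector 1, 2 or 3 it was 9, 8 and 8 higher, or 12.3%, 11% and 11% against 8.46%, 11.9% and 7.53% of all genes. Without uPA overexpression 1, 2 or 3 it was 4, 3 and 2, or 5.48%, 4.11% and 2.74% against 7.48%, 7.41% and 7.15% of all genes, so the members' share was then below that of all genes.

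Of the 73 members 56 had a difference above 0, or 76.7%, against 49.5% of all tested genes. The groups did not overlap in 25 members that were higher in the uPA overexpression tumours, against 14.2% of all genes. They did not overlap in 3 that were lower, against 15.5% of all genes, or 29.7% in either direction. The median difference of the members was 0.09, with quartiles of 0.01 and 0.19, and that of all genes was 0, with quartiles of -0.17 and 0.16. These differences are small: 19 members passed 0.2 in size, against 42% of all genes, and 1 passed 0.5, against 11.2%. The interval of a single member was wide beside them, since the median half-width of the 95% interval was 0.25. With arrays scaled to the 75th percentile in place of quantile normalisation, the members' median was 0.02 and that of all genes -0.048, so the distance between the medians was 0.068, against 0.091 in the main setting, and 43 of 73 members lay above 0, against 41.8% of all genes.

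**Figure D1:**
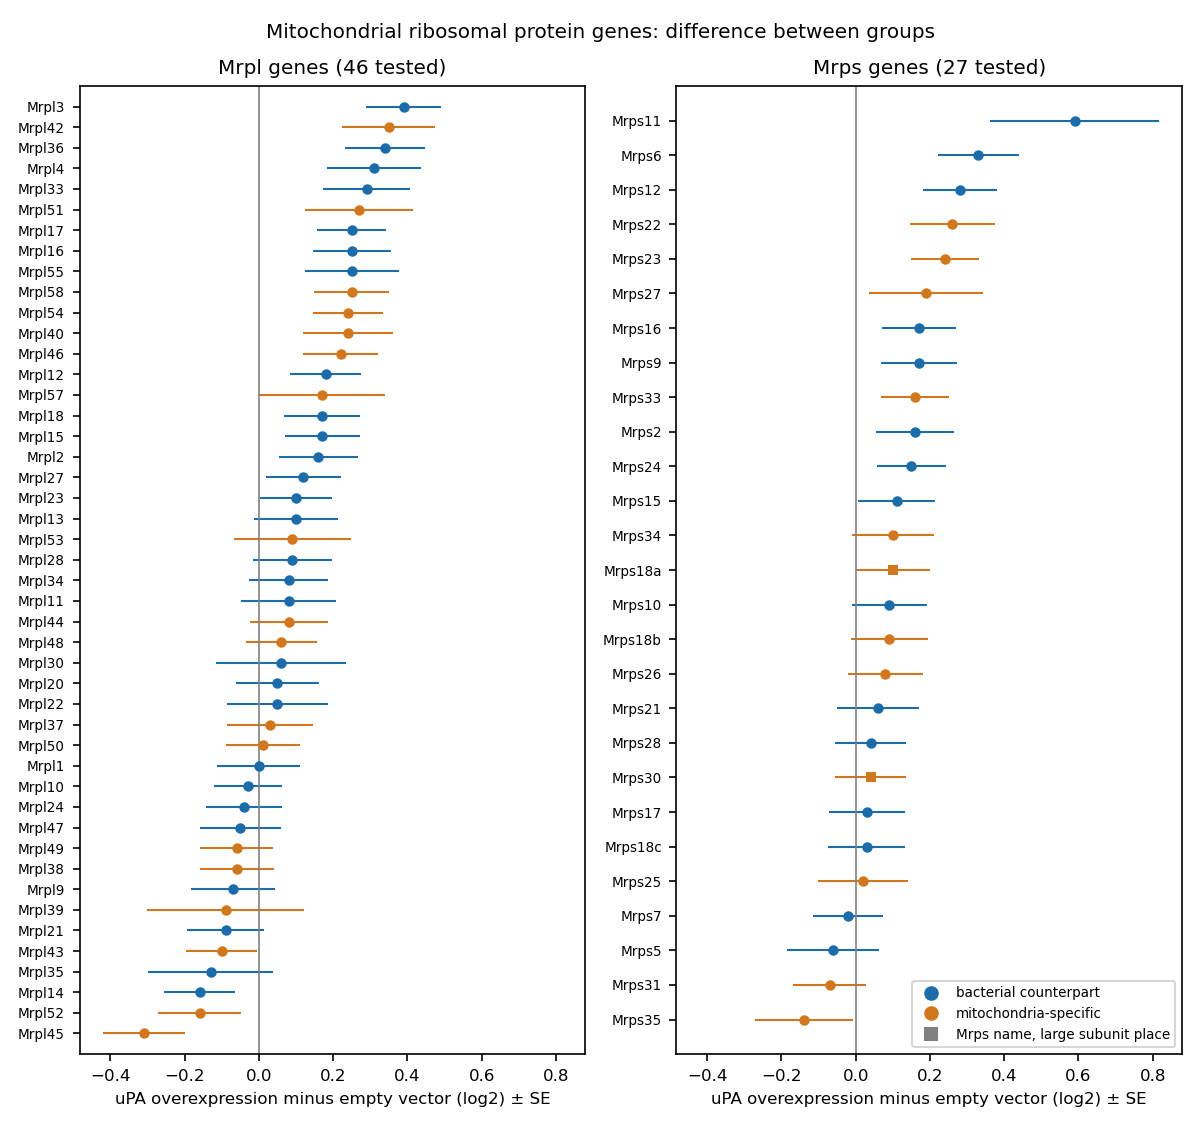
Difference between groups on the log2 scale (horizontal axis, uPA overexpression minus empty vector) for the 46 Mrpl genes and 27 Mrps genes tested, with SE as bars (3 arrays per group). Colours separate proteins with a bacterial counterpart from those found only in mitochondria, and squares mark the Mrps-named proteins of the large subunit. 33 Mrpl and 23 Mrps genes lie right of 0, and the farthest is Mrps11 at 0.59.

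Array by array, the members' median deviation from each gene's mean was -0.026, -0.076 and -0.037 in empty vector 1, 2 and 3, and 0.063, 0.043 and 0.053 in uPA overexpression 1, 2 and 3. All 3 uPA overexpression arrays thus lay above all 3 empty vector arrays. The same median over all genes was -0.01, 0.045 and -0.008 in the empty vector arrays and 0.011, -0.012 and -0.001 in the others, so empty vector 2 was the highest array for all genes and the lowest for the members. Empty vector 2 gave the lowest of the 6 values in 28 members, empty vector 3 in 17 and empty vector 1 in 12. The highest value lay in uPA overexpression 3 in 22 members, in uPA overexpression 1 in 16, in empty vector 1 in 12 and in uPA overexpression 2 in 11. Without empty vector 2, 51 of 73 members lay above 0, against 51.9% of all genes, and the groups did not overlap in 30 higher (41.1%, against 23.8% of all genes) and 8 lower members (11%, against 20.8% of all genes). Without uPA overexpression 3, the latter count was 5 (6.85%, against 19.3% of all genes).

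**Figure D2:**
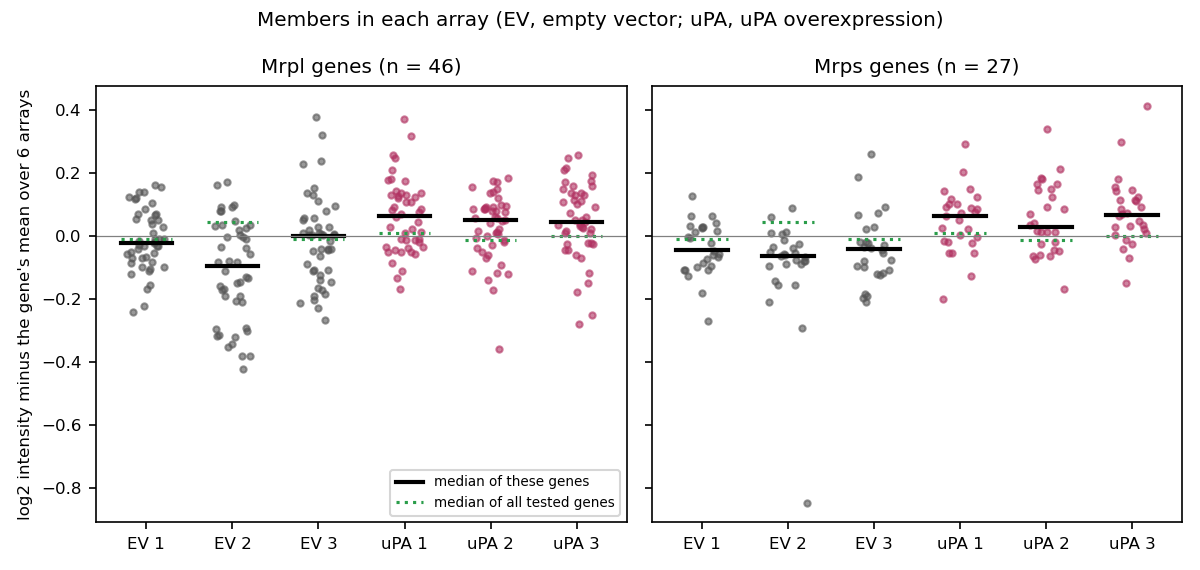
Each point is 1 gene in 1 array, as its log2 intensity minus its mean over the 6 arrays (vertical axis), for Mrpl genes (n = 46) and Mrps genes (n = 27). Black bars are the members' medians and green dotted bars those of all tested genes. The members' bars lie above 0 in the 3 uPA overexpression arrays, and the point near the bottom is Mrps11 in empty vector 2.

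Promoters of the members were read for motifs of factors known to drive nuclear genes of mitochondria, since most members lay on the same side of 0. In the 250 bases before each start listed by RefSeq (GRCm38.p6), 67 of the 76 genes had an entry, with 73 starts in all. The letters CCGGAAG, a core of the ETS factors to which GABPA belongs, stood on either strand in 24.7% of the members' promoters, against 8.98% of 21262 promoters of protein-coding genes. GCATGCGC, a core of the NRF1 site, stood in 11% against 2.93%, and AAGATGGC, a core of the YY1 site, in 5.48% against 1.5%. The ETS and YY1 letters can share AAG where they adjoin. Among tested members with an entry, the 26 with any motif had a median difference of 0.11 and the 39 without had one of 0.08. By motif the median was 0.11 over 18 genes with the ETS letters (0.08 without) and 0.05 over 7 with those of NRF1 (0.09 without). It was 0.34 over 3 with those of YY1 (0.08 without). These 3 are Mrpl36, Mrps11 and Mrps12, all among the highest differences of their subunits. The ETS letters stood in 25.5% of the large and 23.1% of the small subunit promoters, and the NRF1 letters in 14.9% and 3.85%. Of the members with the highest and lowest differences in each subunit, only those with a single listed start were read for printing. That left out Mrpl4 and Mrps35. Of those read, Mrpl42 (0.35) and Mrps6 (0.33) hold none of the motifs, nor do Mrpl45, Mrpl14, Mrpl35, Mrps31, Mrps5 and Mrps7. Over all the members' promoters, any motif stood in 37%. The other 6 read hold a motif and are shown, with its letters in capitals. The sequences read 5′ to 3′ on the gene's strand and end at the base before the start. Mrpl3 (chr9:105053018-105053267, plus strand) and Mrps22 (chr9:98601680-98601929, minus strand) hold the ETS letters, 19 and 11 bases before the start. Mrpl36 (chr13:73330759-73331008, plus strand) and Mrps11 (chr7:78782881-78783130, plus strand) hold the YY1 letters on the opposite strand, 30 and 107 bases before the start, as does Mrps12 (chr7:28741822-28742071, minus strand) at 199 bases. Mrpl52 (chr14:54426659-54426908, plus strand), which differed by -0.16, holds the ETS letters on the opposite strand at 47 bases. These matches describe letters and show no binding.
Mrpl3: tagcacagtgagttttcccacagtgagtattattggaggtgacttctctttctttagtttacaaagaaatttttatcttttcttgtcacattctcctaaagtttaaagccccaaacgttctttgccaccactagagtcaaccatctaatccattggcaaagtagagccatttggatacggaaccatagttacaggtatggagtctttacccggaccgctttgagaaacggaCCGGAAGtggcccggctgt
Mrps22: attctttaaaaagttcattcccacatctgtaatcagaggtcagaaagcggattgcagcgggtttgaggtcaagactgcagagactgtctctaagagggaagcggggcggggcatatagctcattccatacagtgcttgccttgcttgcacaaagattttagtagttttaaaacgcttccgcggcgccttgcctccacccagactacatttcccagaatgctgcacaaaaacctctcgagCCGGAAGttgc
Mrpl36: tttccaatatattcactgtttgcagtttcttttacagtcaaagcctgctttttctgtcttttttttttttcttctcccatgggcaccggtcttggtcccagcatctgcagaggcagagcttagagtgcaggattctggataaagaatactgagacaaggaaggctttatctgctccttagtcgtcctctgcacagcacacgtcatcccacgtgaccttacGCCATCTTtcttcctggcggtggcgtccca
Mrps11: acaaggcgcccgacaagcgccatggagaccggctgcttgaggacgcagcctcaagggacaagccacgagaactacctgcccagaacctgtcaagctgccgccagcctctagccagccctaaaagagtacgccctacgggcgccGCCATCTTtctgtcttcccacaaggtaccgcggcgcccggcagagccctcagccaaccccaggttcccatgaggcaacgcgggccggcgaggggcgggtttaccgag
Mrps12: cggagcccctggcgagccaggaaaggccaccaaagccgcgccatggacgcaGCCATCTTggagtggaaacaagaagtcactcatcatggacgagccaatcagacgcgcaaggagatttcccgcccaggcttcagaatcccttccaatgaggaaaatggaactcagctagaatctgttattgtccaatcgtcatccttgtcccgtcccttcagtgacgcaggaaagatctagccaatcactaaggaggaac
Mrpl52: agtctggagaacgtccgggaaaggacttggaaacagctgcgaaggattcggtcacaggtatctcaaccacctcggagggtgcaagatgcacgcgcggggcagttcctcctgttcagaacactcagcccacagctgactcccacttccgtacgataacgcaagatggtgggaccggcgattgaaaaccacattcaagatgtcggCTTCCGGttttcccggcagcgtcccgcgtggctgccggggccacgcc

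The large subunit genes had 46 tested members, of which 33 lay above 0 and 13 below, with a median of 0.09 and a range of -0.31 to 0.39. None was called by limma, with 9 higher (19.6%, against 9.95% of all genes) and 1 lower (11.4% of all genes) at an unadjusted p under 0.05. The groups stood apart, without overlap, in 15 higher (32.6%, against 14.2% of all genes) and 3 lower members (15.5% of all genes). Mrpl3, the counterpart of bacterial L3, which reaches toward the peptidyl transferase centre, stood nearest to a call. It read 10.12, 9.94 and 10.07 in the empty vector arrays and 10.45, 10.38 and 10.49 in the uPA overexpression arrays. The groups did not overlap, and the difference was 0.39 (SE 0.101, 1.31-fold, adjusted p = 0.0714 by limma). Its adjusted p ran from 0.0249 to 0.219 over 17 alternatives and was under 0.05 in 6 of them. A dimmer Mrpl3 probe gave 0.60 (SE 0.328), with 7.27 in empty vector 2 against 8.52 to 8.80 in the other arrays.

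Mrpl36, which encodes a small zinc-binding protein of the bacterial L36 family, read 10.93, 10.67 and 10.78 in the empty vector arrays and 11.10, 11.12 and 11.18 in the others. All 3 uPA overexpression arrays were higher, by 0.34 (SE 0.108, adjusted p = 0.129 by limma). Its adjusted p ran from 0.0465 to 0.31, under 0.05 only with a trended and robust variance prior. Mrpl42, found only in mitochondria, read 10.68, 10.31 and 10.36 against 10.80, 10.81 and 10.80, a difference of 0.35 (SE 0.125, adjusted p = 0.168 by limma). The groups did not overlap, but empty vector 1 lay nearer to the uPA overexpression arrays than to the other empty vector arrays. Mrpl4, whose bacterial counterpart lines the exit tunnel, read 8.26, 8.02 and 8.38 against 8.48, 8.46 and 8.63. Its difference was 0.31 (SE 0.126, adjusted p = 0.222 by limma), again without overlap.

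The lowest differences in the large subunit were those of Mrpl45, Mrpl14, Mrpl52 and Mrpl35. Mrpl45 encodes the protein at the tunnel exit that holds the ribosome to the inner membrane. It read 5.85, 5.95 and 6.01 in the empty vector arrays and 5.76, 5.61 and 5.50 in the others, a difference of -0.31 (SE 0.111, adjusted p = 0.169 by limma). The groups did not overlap, but the probe was dim, and the difference shrank to -0.15 on uncorrected intensities. It was also -0.15 in the deposited processed values, which were joined to the raw rows by value and are no independent check. Mrpl14, the counterpart of bacterial L14 at the interface of the subunits, read 11.08, 10.96 and 11.02 against 10.83, 10.88 and 10.87, also without overlap (-0.16, SE 0.0951). Mrpl52, found only in mitochondria, differed by -0.16 (SE 0.112), and Mrpl35, of the bacterial L35 family, by -0.13 (SE 0.168), and in both the groups overlapped. The Mrpl35 difference was 0.03 without empty vector 3, -0.04 without uPA overexpression 3 and -0.26 without empty vector 2.

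Members that sit together in the ribosome were set side by side. Of the stalk that recruits translation factors, Mrpl12 differed by 0.18 without overlap of the groups, while Mrpl11 at its base and Mrpl10, to which Mrpl12 binds, differed by 0.08 and -0.03 with overlap. Mrpl22, Mrpl23 and Mrpl24, whose bacterial counterparts ring the tunnel exit, differed by 0.05, 0.10 and -0.04, with overlap in the first and the last. Mrpl58, a peptidyl-tRNA hydrolase built into the large subunit that releases stalled chains, read 7.93, 7.85 and 7.83 against 8.01, 8.17 and 8.19. It differed by 0.25 (SE 0.101, adjusted p = 0.213 by limma).

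Of the 27 small subunit genes tested, 23 lay above 0 and 4 below, with a median of 0.10 and a range of -0.14 to 0.59. None was called by limma, with 4 higher (14.8%, against 9.95% of all genes) and 0 lower (11.4% of all genes) at an unadjusted p under 0.05. The groups stood apart in 10 higher (37%, against 14.2% of all genes) and 0 lower members (15.5% of all genes). Mrps11, the counterpart of bacterial S11 on the platform that holds the messenger RNA, had the largest difference among the 73 members. It read 8.56, 7.72 and 8.53 in the empty vector arrays and 8.86, 8.75 and 8.98 in the others. The groups did not overlap, but empty vector 2 stood well below the rest, and the difference of 0.59 (SE 0.227, adjusted p = 0.197 by limma) was 0.32 without it. A second Mrps11 probe, with 8.30 in empty vector 2, gave 0.25 (SE 0.124) with overlap.

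Mrps6, the counterpart of bacterial S6 on the same platform, read 10.79, 10.76 and 10.87 against 11.12, 11.01 and 11.27. It differed by 0.33 (SE 0.109, adjusted p = 0.147 by limma), with all uPA overexpression arrays higher. Mrps12, the decoding centre protein, read 9.75, 9.66 and 9.62 against 9.96, 10.03 and 9.88, a difference of 0.28 (SE 0.100, adjusted p = 0.167 by limma). The groups did not overlap, but the other Mrps12 probe gave 0.05, and the mean of both 0.17. Mrps22, found only in mitochondria and known from human patients with a respiratory chain defect, read 9.36, 9.05 and 9.22 against 9.43, 9.51 and 9.49. Its difference was 0.26 (SE 0.114, adjusted p = 0.246 by limma). Mrps23, another mitochondria-specific protein, read 9.73, 9.68 and 9.74 against 9.96, 9.96 and 9.95, a difference of 0.24 (SE 0.0914, adjusted p = 0.197 by limma). It was named after its values were seen.

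The 4 small subunit genes below 0 were Mrps35 (-0.14, SE 0.132), Mrps31 (-0.07, SE 0.0989), Mrps5 (-0.06, SE 0.124) and Mrps7 (-0.02, SE 0.0945), and the groups overlapped in each. Mrps5 and Mrps7 have bacterial counterparts and the others are mitochondria-specific. A dim second Mrps5 probe gave -0.50, and the mean of both was -0.28. The sign of Mrps5 and Mrps7 turned when 1 array was left out, and Mrps35 was -0.04 without empty vector 3 and -0.22 without empty vector 2 or uPA overexpression 3.

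**Figure D3:**
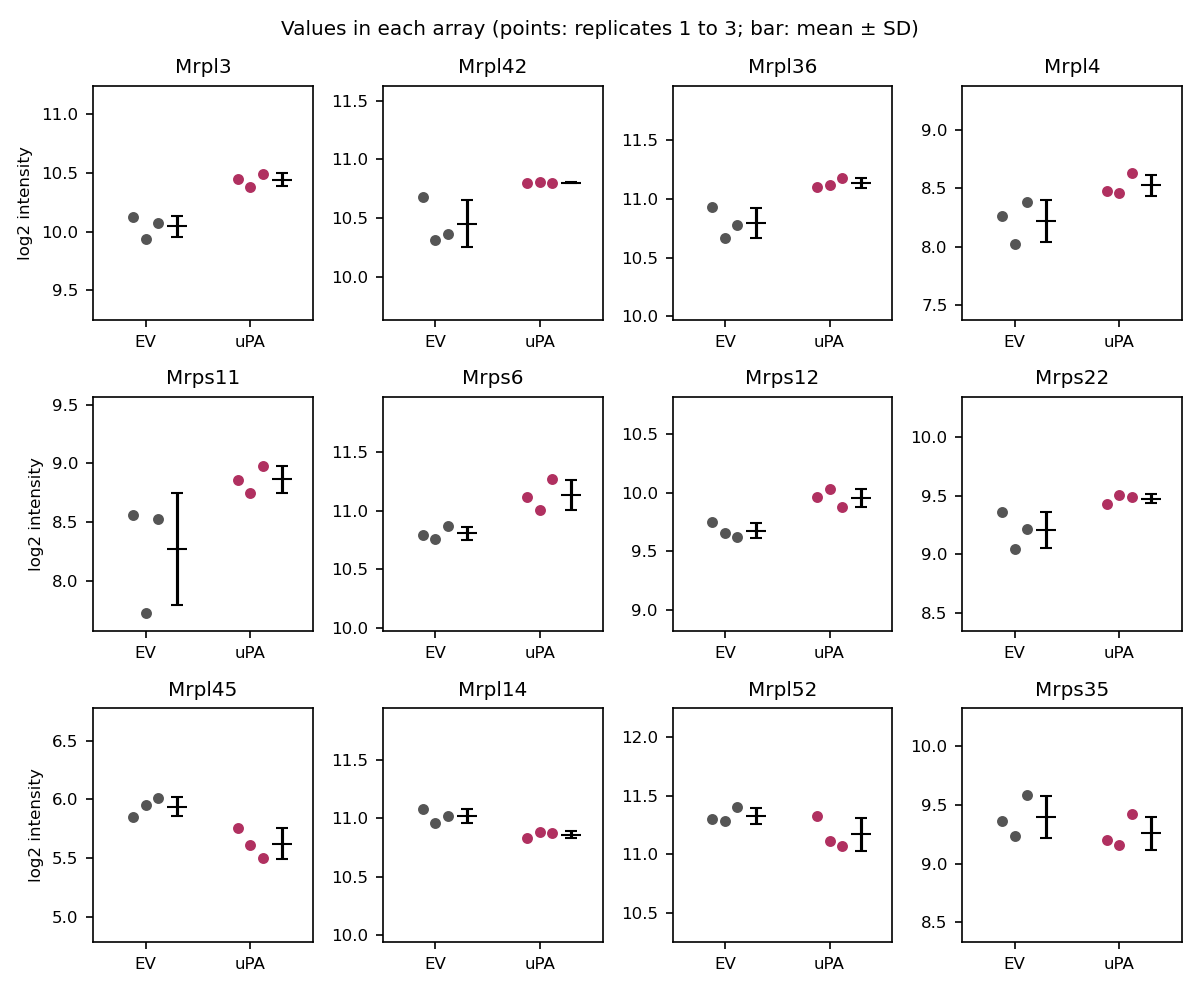
Log2 intensity (vertical axis, each panel spanning the same width) of 12 members in the 3 empty vector (EV) and 3 uPA overexpression (uPA) arrays, in the order of their replicate numbers, with mean and SD beside them. The upper 8 genes, chosen as the highest differences of each subunit, show no overlap of the groups. Nor do Mrpl45 and Mrpl14 below them, which were lower. Of all tested genes, 14.2% were higher and 15.5% lower without overlap. Mrps11 has 1 low array, empty vector 2 at 7.72.

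**Figure D4:**
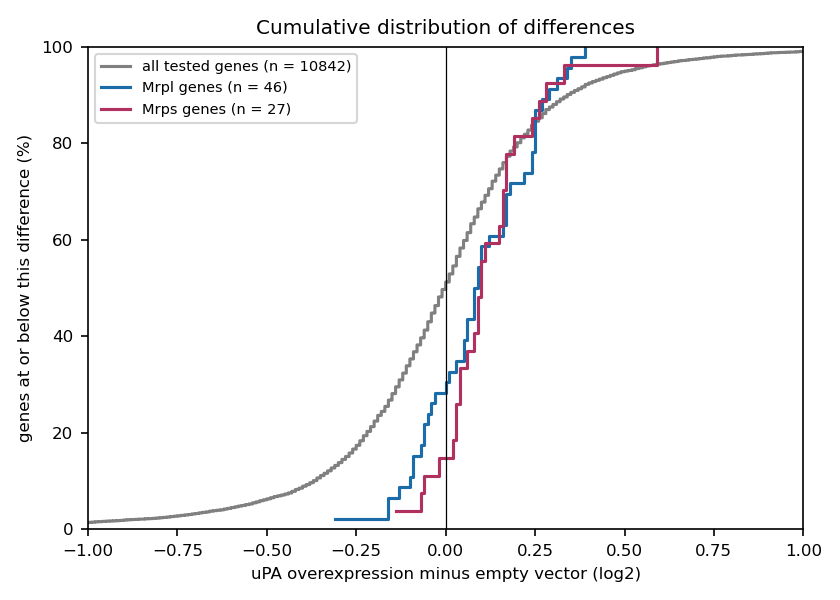
Share of genes (vertical axis, percent) at or below each difference on the log2 scale (horizontal axis). The curves of 46 Mrpl and 27 Mrps genes lie right of that of all 10842 tested genes near 0 and are steeper, and 1 of the 73 members passed 0.5 in size.

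Large and small subunit genes were then compared. Their medians of 0.09 and 0.10 differed by -0.01, large minus small. By array the 2 medians differed by 0.022, -0.033 and 0.042 in the empty vector arrays (0.01 ± 0.0389, SD, n = 3) and by -0.002, 0.021 and -0.022 in the others (-0.001 ± 0.0211, SD, n = 3), so the groups overlapped. The share of genes above 0 was 71.7% for the large and 85.2% for the small subunit, and the share higher without overlap was 32.6% and 37%, against 49.5% and 14.2% of all genes. These shares were not tested, since the genes share arrays and are no replicates. In the empty vector arrays the large subunit's median deviation was -0.022, -0.096 and 0, and the small subunit's -0.045, -0.063 and -0.042, both lowest in empty vector 2.

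Names do not always give the place of the protein: Mrps30 and Mrps18a, despite their names, belong to the large subunit in solved structures. They differed by 0.04 and 0.10, and placing them there left the medians at 0.09 and 0.10. Mrps18b and Mrps18c, related in sequence to Mrps18a but parts of the small subunit, differed by 0.09 and 0.03. The groups overlapped for all 4 genes. By origin, the median was 0.09 over 28 large subunit proteins with a bacterial counterpart, 0.07 over 20 mitochondria-specific ones, 0.11 over 15 small subunit proteins with a counterpart and 0.10 over 10 without. The share above 0 ran from 70% to 86.7% over these 4 classes.

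Several genes had more than 1 probe, which allowed the values to be compared within a gene. Of 27 genes with several tested probes, 14 had probes of opposite sign. In Mrpl15 and Mrpl18 such probes lay more than 0.3 apart. The 2 bright Mrpl15 probes gave 0.17 and 0.16, while 4 dimmer ones ran from -0.25 to 0.33. The bright Mrpl18 probe gave 0.17 and the dim one -0.38, and their mean was -0.10. The labels do not place the probes in the transcripts. Mrpl32, Mrpl19 and Mrps14 were not detected on any array by any of their probes, with log2 intensities between 4.32 and 4.77, and could not be compared.

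Other genes of mitochondrial translation were read beside the members. The subunits whose symbols lie outside the rule, with 4 genes tested, had 1 above 0 and a median of -0.12. Of these Ptcd3, a small subunit protein with RNA-binding repeats, differed by -0.26 (SE 0.105) and Chchd1 by -0.14 (SE 0.114), with adjusted p of 0.216 and 0.522 by limma. The Chchd1 difference was -0.08 without empty vector 2 and -0.22 without empty vector 3. Of 23 genes of ribosome assembly and rRNA modification 1 rose and 0 fell (2.31% and 3.1% of all genes), with a median of 0.02. At an unadjusted p under 0.05, 3 were higher (13%, against 9.95% of all genes) and 1 was lower (11.4% of all genes). The gene that rose was Tfb1m, which encodes the enzyme that methylates the small ribosomal RNA and is needed for small subunit assembly. It read 7.05, 7.05 and 6.96 in the empty vector arrays and 7.44, 7.49 and 7.51 in the others, a difference of 0.46 (SE 0.0948, adjusted p = 0.0396 by limma) without overlap. Its adjusted p over 17 alternatives ran from 0.0165 to 0.156 and was under 0.05 in 10. The call was lost when any array but empty vector 2 was left out, with values of 0.43 to 0.48. The gene lower at an unadjusted p was Grsf1, which encodes an RNA-binding protein of mitochondrial RNA granules, named after its values were seen. It read 10.73, 10.76 and 10.53 against 10.26, 10.34 and 10.23, without overlap, a difference of -0.40 (SE 0.108, adjusted p = 0.0844 by limma).

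None of the genes in the other lists passed the test by limma. The 18 translation factors had a median of 0.09 with 12 above 0. At an unadjusted p under 0.05, 3 were higher (16.7%, against 9.95% of all genes) and 0 lower (11.4% of all genes). Of these, Gfm1, the elongation factor that moves the ribosome along, differed by 0.38 (SE 0.124, adjusted p = 0.141 by limma; 0.21 over the mean of its probes). Qrsl1, a subunit of the enzyme that makes glutaminyl-tRNA, differed by 0.25 (SE 0.0941, adjusted p = 0.186 by limma). The 13 aminoacyl-tRNA synthetases had a median of 0.12 with 8 above 0. At an unadjusted p under 0.05, 1 of the 13 was higher (7.69%, against 9.95% of all genes). Among these synthetases Lars2 differed by 0.31 and Nars2 by 0.37. The Nars2 difference was 0.17 without background correction and 0.57 without empty vector 2. The 12 genes of mitochondrial DNA transcription and maintenance had a median of 0 and 1 gene lower at an unadjusted p under 0.05 (11.4% of all genes). The polymerase subunit gene Polg2 differed by -0.29 and the transcription factor gene Tfb2m by 0.23 (0.12 without empty vector 2). The 7 nuclear regulators of mitochondrial biogenesis had a median of 0.02. At an unadjusted p under 0.05, 1 gene was higher (14.3%, against 9.95% of all genes) and 1 lower (11.4% of all genes). Of these regulators, the receptor gene Esrra differed by -0.33 (SE 0.0960, adjusted p = 0.106 by limma, 0.0437 to 0.289 over 17 alternatives). Ppargc1b, which encodes a coactivator of such regulators, differed by 0.37 (SE 0.144).

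Genes of the respiratory chain and ATP synthase, which the ribosome's products join, were picked by the start of their symbols. Such a pick also admits assembly factors named Ndufaf. The 80 tested genes of this list had a median of 0.10. Of these, 66 lay above 0 (82.5%, against 49.5% of all genes). Without overlap, 26 were higher (32.5%, against 14.2% of all genes) and 1 was lower (15.5% of all genes). The 45 tested proteins of the cytosolic ribosome had a median of -0.01, with 16 above 0 (35.6%). Without overlap, 0 were higher and 6 lower, where 14.2% and 15.5% of all genes were. By limma neither list had a called gene. At an unadjusted p under 0.05 the first had 8 higher (10%, against 9.95% of all genes) and 1 lower (11.4% of all genes). The second had 0 higher and 4 lower, beside the same shares of all genes. The difference between lists was not tested.

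**Figure D5:**
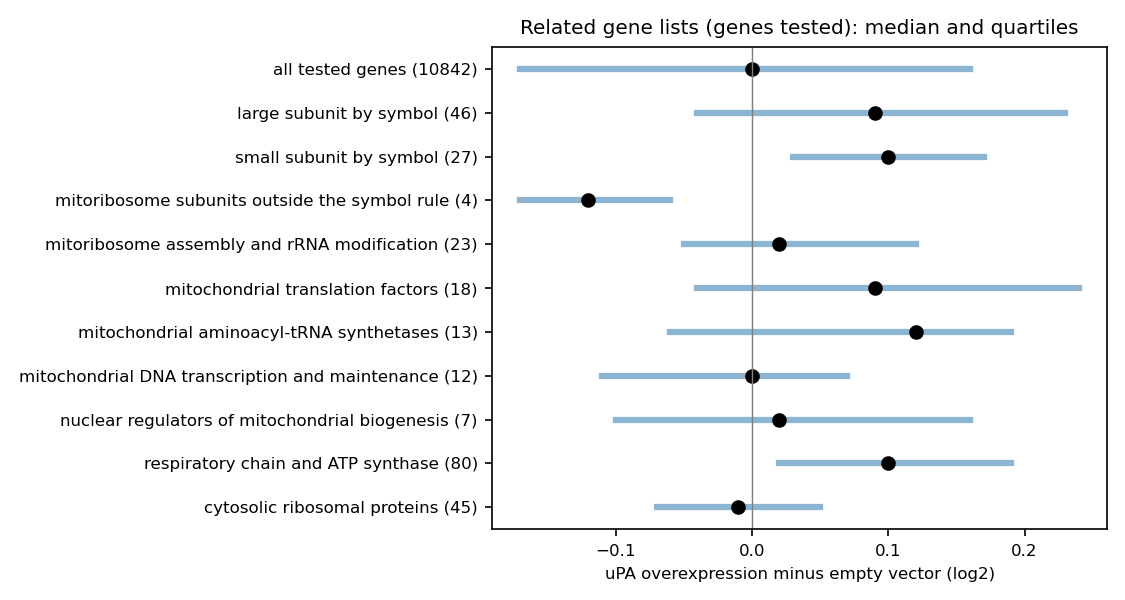
Median (point) and range between the lower and upper quartile (bar) of the difference on the log2 scale, for all tested genes, the members by symbol and related lists, with the number of genes tested in brackets. The 2 subunits and the respiratory chain have medians of 0.09 to 0.10, and the cytosolic ribosome one of -0.01.

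Markers of some cell types differed between the groups, while the sums of several others overlapped. Of 9 tested macrophage genes 7 rose and 0 fell, and their summed intensity ran from 16500 to 17400 in the empty vector arrays and from 26900 to 32000 in the others, with none of the list undetected. Of 8 tested epithelial genes 4 fell and 0 rose, with sums of 41800 to 46500 against 25500 to 30300. Of 7 tested mast cell genes 6 rose and 0 fell, with sums of 938 to 1320 against 2890 to 3740 and Ms4a2 undetected. Skeletal muscle, a tissue rich in mitochondria, had 6 tested genes and 0 calls, with sums of 1760 to 3770 against 1780 to 10600, the highest in uPA overexpression 3. That array's median deviation was 0.046 for the large subunit, the lowest of its group, and 0.068 for the small subunit, the highest, and it held the highest value in 22 of the 73 members, more than any other array. In 2 lists 1 gene fell, the fibroblast list (9 tested, sums of 17100 to 22400 against 15300 to 20000) and the neutrophil list (5 tested, 1580 to 2370 against 991 to 1680). No gene was called in the adipocyte, T cell and endothelial lists. The adipocyte sums (192 to 719 against 235 to 459) and endothelial sums (3250 to 3810 against 2340 to 3550) overlapped. The T cell sums did not, at 336 to 505 against 536 to 553, and all 4 tested T cell genes lay above 0. The part of these cells in the members' differences was not tested.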

How the data were processed

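Biotin-labelled cRNA from the total RNA of 6 tumours was hybridised to the Illumina mouse whole-genome BeadChip, per the labels' protocols and the series design text. The deposited raw table holds an unnormalised intensity per probe and array and a detection value named a p-value in the file header. That value rises to 1 with brightness, so 1 minus it was used. The deposited processed table is on a log2 scale. The design text names GeneSpring GX 11.0 for it, and the values are centred per probe on an unknown level, with column medians of 0.00227, 0.0042 and 0.00197 (empty vector) and 0.00332, 0.00247 and 0.00288 (uPA overexpression). Rows of the tables were joined by value, so the direction of the processed values follows the raw intensities by construction.

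Bead addresses label the raw rows and probe IDs the processed rows. Rows were joined as mutual nearest rows of quantile-normalised log2 values, at least 3 times nearer than the next (45232 of 45281 rows, all 132 member probes; Python 3.11.15, scipy 1.17.1). All 45281 simulated rows were matched and 0 wrongly, whereas 49 real rows found no match. The simulation thus behaved unlike the real tables and cannot give the error rate of the real matches. The pairs of bead address and probe ID were not compared with the manufacturer's annotation, and every gene symbol used here depends on them. Symbols came from the GEO platform annotation (34885 probes with 1 symbol, 18 with several, 10378 with none), and by gene ID 0 tested members had another RefSeq name (GRCm38.p6).

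Background was corrected by normexp from the detection p-values with offset 16. Arrays were then quantile normalised and put on a log2 scale with limma 3.58.1 in R 4.3.3. A probe was tested if its detection p was under 0.05 on 3 or more of the 6 arrays (20434, 45.1%). The two-sided test used lmFit and eBayes with the group as its only term, with 4 residual and 3.35 prior degrees of freedom. A gene is its tested probe with the highest mean, adjusted by Benjamini-Hochberg over 10842 genes. The fit was tested on simulated data. The number of arrays limits the precision.

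The members, lists and tests were chosen with earlier results of these data known. Named were the 4 highest and 4 lowest differences of each subunit, any called member, genes with probes of opposite sign over 0.3 apart, undetected genes, and called genes of related lists or else the 2 with the smallest p. Other members were named for their place in the ribosome, after their values were seen, as were the comparison lists of the respiratory chain and the cytosolic ribosome. No set test was run. Alternatives changed background, offset, scaling, filter, table, replicate block, array weights, variance prior, probe averaging, variance sharing, arrays and subunit assignment.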

Additional observations from a re-analysis of the deposited data

How the results depend on the processing

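Both subunits' median differences stayed above 0 under every alternative run. They were 0.02 with scaling to the 75th percentile, where the median of all genes was -0.048. Leaving out each array gave 0.08 to 0.11 for the large subunit, 0.08 to 0.12 for the small, and -0.05 to 0.02 for large minus small, which thus has no settled sign. Called members numbered 1 higher (Mrpl3) without background correction, with offset 50, without a filter, in the deposited processed values and with array weights, and 2 (Mrpl3 and Mrpl36) with a trended and robust prior. They numbered 0 in each direction with any 1 array left out, and with 75th percentile scaling, a filter on all 6 arrays, a replicate block, the mean of all probes and an ordinary test. The ordinary test called 0 of all genes. The deposited processed values were joined to the raw rows by value. That setting and the one without background correction are therefore not independent (849 and 847 calls over all genes). Members above 0 numbered 51 to 57 with each array left out, those higher without overlap 27 to 32 (17.7% to 23.8% of all genes, from 14.2%) and those lower 3 to 8 (19.3% to 21.3% of all genes, from 15.5%), counts chosen after seeing the data. With the replicate block 5 members were higher and 0 lower at an unadjusted p under 0.05 (6.85% higher, against 7.27% of all genes).

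Over all genes, 586 calls (250 higher, 336 lower) became 1070 (502, 568) with array weights, 382 higher with a trended prior, 77 (30, 47) with the replicate block, 0 (0, 0) with an ordinary test, and 33 to 609 (8 to 301, 25 to 308) with each array left out. Replicate numbers did not pair the arrays (correlations of -0.19, -0.26 and 0.07). Signs turned for Mrpl35 without empty vector 3 (0.03), Mrps5 without uPA overexpression 1 (0.02; -0.17 to 0.02 with each array left out), Mrps7 without empty vector 3 (0.01) or uPA overexpression 2 (0.00; -0.04 to 0.01) and with the mean of its probes (0.03), and Mrpl18 with that mean (-0.10). The causes were not tested.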
